A study of Mus musculus with 6 samples.

Results

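Chemoreceptors are the receptor proteins with which mammals detect odorants, pheromones, trace amines and tastants, and 84 of their genes had enough reads to be measured in mouse germinal vesicle (GV) oocytes, the fully grown oocytes still arrested before meiotic maturation. The genes were chosen by symbol (olfactory receptors, named Olfr; vomeronasal receptors, named Vmn1r and Vmn2r; trace amine-associated receptors, Taar; taste receptors, Tas1r and Tas2r) and by a sum of at least 60 raw counts over all 6 libraries, whatever their genotype. The tables list 2028 such receptor genes among 53700 gene rows, of which 940 had at least 1 count and 1088 had none. The 84 genes were 59 of 1407 olfactory receptors, 11 of 326 Vmn1r genes, 11 of 236 Vmn2r genes, 1 of 16 Taar genes, 2 of 3 Tas1r genes and none of 40 Tas2r genes, of which 7 had any count. They held 94.3% of all chemoreceptor counts. Because they were selected on the summed counts, their presence and rank are a description of these libraries and were not tested.

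The libraries came from Zar1 knockout oocytes (labelled Zar -/-, 3 libraries) and wild-type oocytes (labelled Zar +/+, 3 libraries), all on the C57BL/6N strain background. Each library was made from the poly(A) RNA of 10 GV oocytes with a single-cell RNA library kit. ZAR1 is an RNA-binding protein of oocytes, and the series concerns how oocytes store mRNAs. The labels call the libraries biological replicates but do not say whether the pools came from separate females, and they give no age of the females, so the tests speak of the spread from pool to pool. In a pool, fewer oocytes with a transcript and less transcript per oocyte cannot be told apart.

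Olfactory receptors form the largest gene family of the mouse genome. In the nose each olfactory sensory neuron expresses a single receptor gene, the receptor couples through the G protein Golf (Gnal) to adenylyl cyclase (Adcy3) and a cyclic-nucleotide-gated channel (Cnga2), and the calcium-activated chloride channel anoctamin 2 (Ano2) amplifies the current. Vomeronasal type 1 and type 2 receptors detect pheromones, trace amine-associated receptors detect volatile amines, and taste receptors detect sweet, umami and bitter substances. The genes lie in clusters of close relatives, many are pseudogenes, and reads from near-identical copies are hard to assign.

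The libraries held 35066851 to 37946223 gene counts in the Zar1 knockout and 32126555 to 39148833 in wild type. Zar1 itself had 69, 96 and 226 counts in the knockout libraries, against 15245, 13612 and 12810 in wild type (log2 fold change -6.75 ± 0.36 SE, adjusted p = 1.9e-05), so the labels and the targeted transcript agree. Its paralog Zar1l had 6703, 6268 and 6572 counts in the knockout, against 5093, 4643 and 3591 in wild type (0.55 ± 0.09, adjusted p = 0.00224). Oocyte markers were abundant in both genotypes, with Gdf9, an oocyte growth factor, at 3273 ± 395 CPM in the knockout and 3088 ± 150 CPM in wild type (CPM, counts per 1000000 gene counts of the library, with library sizes scaled by the trimmed mean of M values; mean ± SD, n = 3 each); of the 12 listed, 7 rose and 2 fell. Markers of olfactory sensory neurons were nearly absent: the 6 listed genes summed to 1.06 to 1.77 CPM in the knockout and 1.08 to 2.28 CPM in wild type, and Omp, the classical marker of mature olfactory neurons, had 3, 1 and 0 counts in the knockout libraries, against 0, 0 and 0 in wild type. The 12 granulosa and cumulus markers summed to 126 to 131 CPM in the knockout and 106 to 118 CPM in wild type, and 9 of them reached 60 counts, of which 1 rose, 1 fell and 7 were not called. The most counted of these were Nr5a2, which rose (77.9 ± 5.53 CPM in the knockout, 51.9 ± 3.17 CPM in wild type; adjusted p = 0.00162), and Cyp19a1 (42.9 ± 7.71 CPM in the knockout, 47.8 ± 5.72 CPM in wild type). Kitl, the granulosa cell ligand of the oocyte receptor Kit, fell (0.797 ± 0.472 CPM in the knockout, 4.02 ± 0.321 CPM in wild type; adjusted p = 0.00258). Nr5a2 and Cyp19a1 held most of the granulosa and cumulus sum. The 3 of these markers under 60 counts were Amh, Foxl2 and Lhcgr, with 11, 23 and 53 counts over the 6 libraries. For comparison with these marker tallies, 14.7% of all genes tested were called higher and 18.2% lower. The 6 blood and immune markers summed to 0.945 to 2.28 CPM in the knockout and 0.454 to 1.26 CPM in wild type. Of those 6, 3 were at 0 counts. The part of these other cell types in the results below was not tested.

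A single gene, Olfr976, held 76.2% of the counts of the 84. Olfr976 (ENSMUSG00000047352.7, chromosome 9), an olfactory receptor gene, had 83706 counts over the 6 libraries, 32.2 times as many as the next gene. It ranked 382 among all genes by its mean level in wild type. Per kilobase of annotated exon it stood at 96.9 CPM in the knockout and 132 CPM in wild type, against 6.53 CPM in the knockout and 9.44 CPM in wild type per kilobase for the next highest by this measure in wild type, the pheromone receptor gene Vmn1r139. Little of its sequence is shared: 4.41% of its 50-base windows and none of its 100-base windows occurred in another annotated transcript. Its closest relative, the pseudogene Olfr977-ps1, was 90.3% identical over the aligned coding sequence. A stretch of 60 coding bases of Olfr976 is shown with the aligned bases of that pseudogene, from GENCODE M21 transcripts on GRCm38, because it shows how often the copies can be told apart within a short read. Capitals mark the 7 positions at which they differ.
Olfr976: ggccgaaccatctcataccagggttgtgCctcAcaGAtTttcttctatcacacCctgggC
Olfr977-ps1: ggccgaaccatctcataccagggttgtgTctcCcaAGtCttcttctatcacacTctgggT
Vmn1r139, second by its mean level in wild type, has 1326 bases of annotated exon. Its longest transcript, the only one compared, has 894 bases. That transcript is identical over its whole length to an annotated copy, Vmn1r132, so all of its 50-base and 100-base windows occurred elsewhere. Exon bases outside that transcript were not compared. The stretch at the same place in the coding sequences of Vmn1r139 and Vmn1r132 holds no difference.
Vmn1r139: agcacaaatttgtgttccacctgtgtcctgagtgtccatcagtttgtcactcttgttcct
Vmn1r132: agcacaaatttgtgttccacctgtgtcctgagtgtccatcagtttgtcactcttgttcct
Even so, Vmn1r139 was credited with 412, 278 and 246 counts in the knockout and 473, 419 and 451 in wild type, while Vmn1r132 had 0, 1 and 0 in the knockout and 2, 0 and 0 in wild type. The identity was measured on the earlier GRCm38 annotation and the counts on mm39, so whether both copies stand in the mm39 annotation was not tested. The value of Vmn1r139 is therefore uncertain.

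RefSeq lists 2 promoters for Olfr976. One of them, chr9:39960995-39961294 on the minus strand of GRCm38.p6 (250 bases before the annotated start and 50 after it), carries the TATA-box letters TATAAA 5 times, shown in capitals.
Olfr976 promoter: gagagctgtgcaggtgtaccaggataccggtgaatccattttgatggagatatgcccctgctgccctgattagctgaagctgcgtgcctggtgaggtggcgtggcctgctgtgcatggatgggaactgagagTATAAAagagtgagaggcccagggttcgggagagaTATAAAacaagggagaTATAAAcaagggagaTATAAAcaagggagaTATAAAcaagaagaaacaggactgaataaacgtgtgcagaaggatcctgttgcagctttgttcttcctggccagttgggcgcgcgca
Only 4 of the 32851 RefSeq promoters of the mouse hold this motif 5 or more times on either strand. The same promoter shared a stretch of at least 25 bases with the promoters of 23 other genes, whereas 15.4% of a sample of 3286 promoters shared such a stretch with any other gene and 5.45% did so with 10 or more. Of those 23 genes 4 had 60 or more counts. Gal3st2c was lower in the knockout (3.85 CPM, against 6.79 CPM in wild type; log2 fold change -0.82, adjusted p = 0.0173) and Ifit1bl2 was higher (127 CPM, against 102 CPM in wild type; 0.31, adjusted p = 0.0131), while Gm13269 (-0.09, adjusted p = 0.818) and Gm7550 (-1.68, adjusted p = 0.0556) did not pass edgeR's quasi-likelihood test. These 4 genes therefore did not all move one way, and whether they share the same stretch of the promoter was not tested. The other promoter of Olfr976 held no TATAAA on the strand of the gene and shared no 25-base stretch with the promoter of another gene. Which of the 2 is used in these oocytes was not tested. Repeat annotation was not used here.

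Apart from Olfr976, the 84 genes were expressed at low levels. Their median level was 0.704 CPM in the knockout and 0.823 CPM in wild type. In the knockout 25 of them averaged over 1 CPM, against 39 in wild type, and 3 averaged over 10 CPM in the knockout, against 2 in wild type. The median gene had 162 counts over the 6 libraries. All but 2 had at least 1 count in every library (82 of 84), and 48 had at least 10 in every library. At the edge of the rule, Olfr373, Olfr316, Olfr703 and Vmn1r88 stood just inside with 67, 66, 66 and 64 counts, and Olfr461, Olfr881, Vmn2r-ps104 and Vmn2r25 just outside with 59 counts each. In 3 genes a single library held more than 40% of the counts. Olfr286, for example, had 60, 0 and 0 counts in the knockout and 43, 1 and 7 in wild type. None of those 3 passed the test between genotypes.

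**Figure D1:**
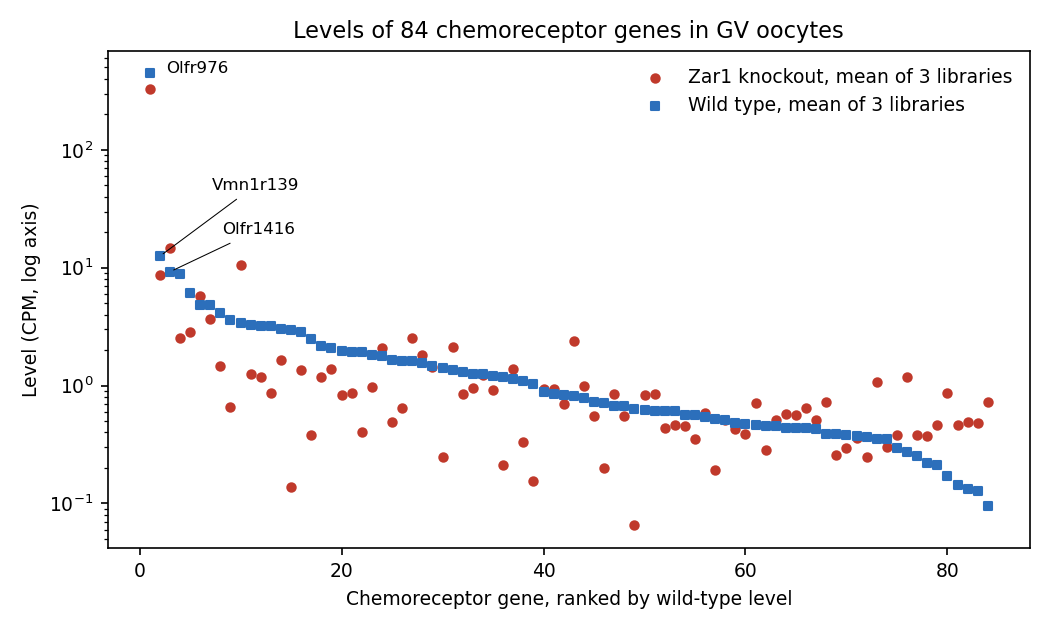
Mean level (CPM, log axis) of each of the 84 chemoreceptor genes in Zar1 knockout libraries (red circles, n = 3) and wild-type libraries (blue squares, n = 3), with genes ordered by their wild-type level. Olfr976 stands alone at 328 CPM in the knockout and 446 CPM in wild type, and the other genes lie between 0.0653 and 14.7 CPM.

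Together the 84 genes held 469, 428 and 391 of every 1000000 gene counts in the knockout libraries, against 602, 563 and 594 in wild type, here without TMM scaling. Every knockout library lay below every wild-type library. Without Olfr976 the sum on the same scale was 114, 107 and 97.3 in the knockout, against 141, 133 and 131 in wild type, and again the groups did not overlap. The number of chemoreceptor genes with at least 10 counts overlapped between genotypes, at 84 to 94 in the knockout and 84 to 104 in wild type.

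In edgeR's quasi-likelihood test over 16483 genes, with Benjamini-Hochberg adjusted p under 0.05 as the call, 30 of the 84 chemoreceptor genes were called: 7 were higher and 23 were lower in the knockout. Over all genes tested 32.9% were called, 14.7% higher and 18.2% lower. The called share of the chemoreceptor genes, 35.7%, was close to that background, with 8.33% higher and 27.4% lower. Their median log2 fold change was -0.28, against 0.01 for all genes tested. The libraries of the genotypes did not overlap for 13 genes that were higher and 27 that were lower in the knockout; over all genes 22.3% stood apart as higher and 25.4% as lower, 47.6% in all. A gene that reached 60 counts mainly through 1 genotype had to differ. Of the 84, 18 had under 30 counts over the 3 libraries of 1 genotype, some of them, such as Olfr703 with 27 in the knockout and 39 in wild type, only for lying near the threshold. Of these 18, 10 were not called, 3 were higher (Olfr972, Olfr654, Olfr653) and 5 lower (Olfr283, Taar9, Olfr1164, Olfr848-ps1, Olfr513). The calls of those 8 carry this limit wherever they are named below. The counts of calls describe the genes that passed and do not stand for all chemoreceptor genes.

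**Figure D2:**
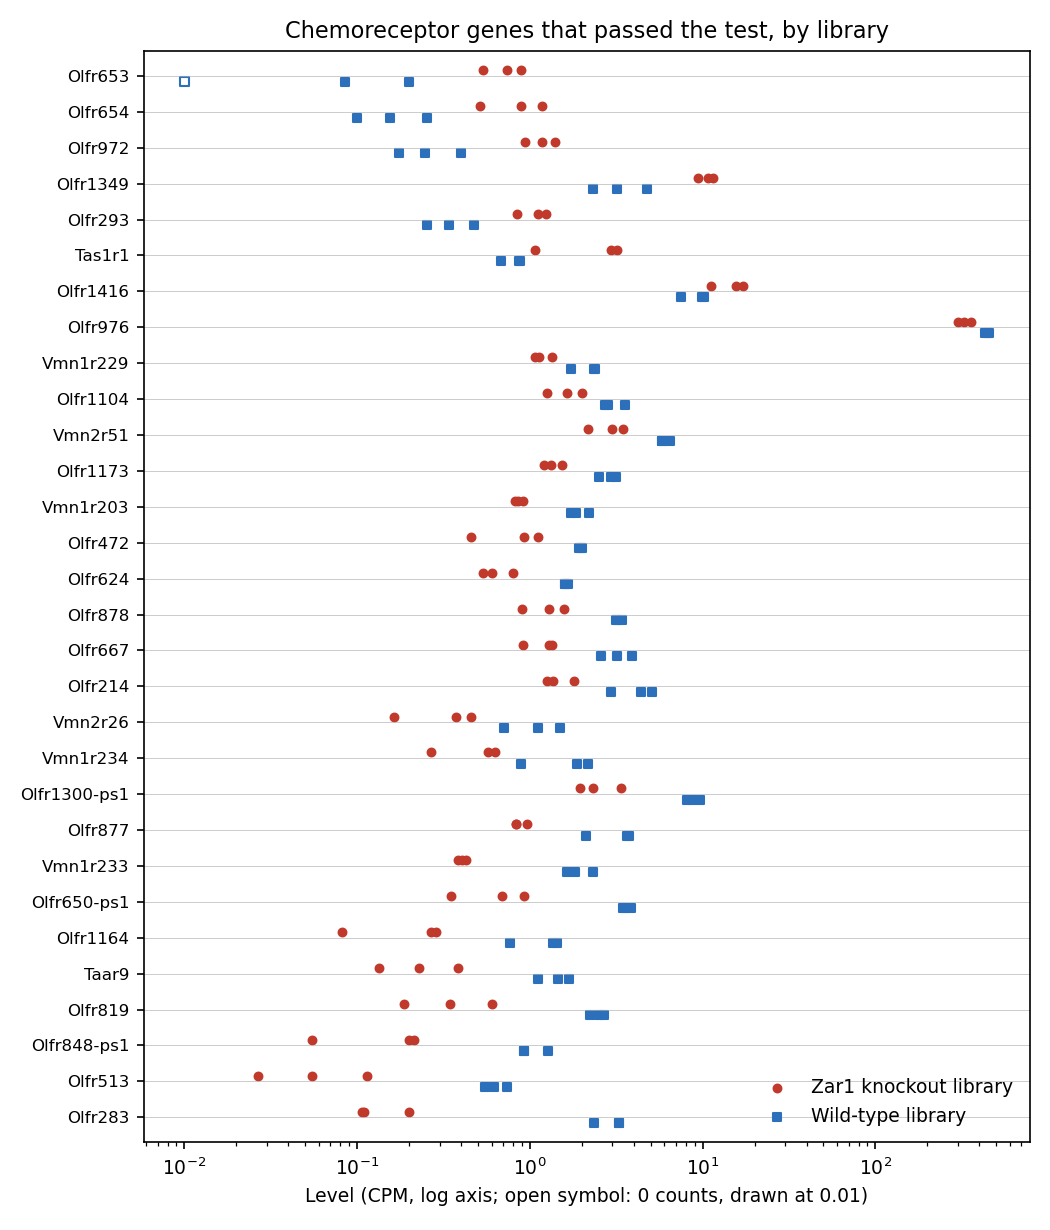
Level (CPM, log axis) of the 30 called genes in each library, with Zar1 knockout libraries as red circles above and wild-type libraries as blue squares below on each row. The genotypes do not overlap in any of these genes, and the rows run from Olfr653, with the greatest increase, to Olfr283, with the greatest decrease.

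The other receptor genes that fell changed by more than Olfr976 did. Olfr976 had 12470, 12186 and 10941 counts in the knockout, against 18040, 15206 and 14863 in wild type. That is 328 ± 28.9 CPM in the knockout and 446 ± 13.5 CPM in wild type (SD, n = 3 each), a log2 fold change of -0.44 ± 0.08 (SE, adjusted p = 0.00324). Its libraries did not overlap, and of the 23 genes that fell it had both the highest level and the smallest change.

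Olfr283 (ENSMUSG00000056184.6, chromosome 15), an olfactory receptor gene with 0.0427% of its 50-base windows shared, changed most. It had 7, 4 and 4 counts in the knockout, against 132, 116 and 76 in wild type. Its mean level was 0.139 ± 0.0532 CPM in the knockout and 2.97 ± 0.544 CPM in wild type (log2 fold change -4.39 ± 0.39 SE, adjusted p = 0.000121). Of all tested genes with 240 to 479 counts, 5% had a log2 fold change of -1.85 or less. The detected neighbours of Olfr283 that are no receptors did not share its size of change: Asb8 had 157 CPM in the knockout and 141 CPM in wild type (0.15, adjusted p = 0.106), and the milk protein gene Lalba fell to 6.49 CPM in the knockout, against 19.2 CPM in wild type (-1.57, adjusted p = 0.00198). Olfr286, with 4 genes between it and Olfr283 in the same cluster, was not called (0.35, adjusted p = 0.887). The promoter of Olfr283, chr15:98379148-98379447 on the minus strand of GRCm38.p6, holds TATAAA once, on the strand opposite to the gene, where it reads TTTATA and stands in capitals.
Olfr283 promoter: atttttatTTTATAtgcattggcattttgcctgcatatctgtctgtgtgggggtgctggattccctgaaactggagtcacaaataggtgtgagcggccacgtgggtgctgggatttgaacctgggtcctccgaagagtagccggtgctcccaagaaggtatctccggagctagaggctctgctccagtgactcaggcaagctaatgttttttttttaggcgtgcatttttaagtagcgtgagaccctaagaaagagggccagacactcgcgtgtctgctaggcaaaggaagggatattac

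Among the other olfactory receptor genes that fell, the pseudogene Olfr1300-ps1 was the most abundant. It had 68, 86 and 124 counts in the knockout, against 391, 305 and 264 in wild type (-1.79 ± 0.24, adjusted p = 0.000766), and 11.4% of its 50-base windows were shared. It also overlaps the exons of the noncoding transcript Gm44840 on the same strand, which had 13 counts. Olfr650-ps1, another pseudogene, had 24, 13 and 34 counts in the knockout and 140, 126 and 125 in wild type (-2.47 ± 0.36, adjusted p = 0.00128). None of its windows was shared. In both genes the lowest wild-type library had at least 2 times the counts of the highest knockout library.

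Olfr819 had 12, 7 and 22 counts in the knockout and 108, 89 and 72 in wild type (-2.70 ± 0.43, adjusted p = 0.00189), but 28.9% of its windows were shared, and its closest relative is the annotated gene Gm10310. Olfr513 had 4, 1 and 2 counts in the knockout and 22, 26 and 20 in wild type (-3.22 ± 0.58, adjusted p = 0.00345). Olfr848-ps1 had 7, 8 and 2 counts in the knockout and 37, 45 and 30 in wild type (-2.71 ± 0.54, adjusted p = 0.00553). The last pair had no shared window, and with so few counts their folds are the least certain. Olfr1164, with 10, 10 and 3 counts in the knockout against 58, 48 and 25 in wild type, fell by 2.48 on the log2 scale (adjusted p = 0.00824).

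Olfr877 and Olfr878 stand in 1 cluster of chromosome 9 with 2 genes between them, and both fell. Olfr877 had 29, 31 and 35 counts in the knockout and 146, 133 and 69 in wild type (-1.86 ± 0.31, adjusted p = 0.00252). Olfr878 had 55, 48 and 33 counts in the knockout and 128, 120 and 102 in wild type (-1.37 ± 0.28, adjusted p = 0.00654). Neither shared more than 0.406% of its windows with another transcript. Olfr874, a further gene of that cluster, had 13, 14 and 12 counts in the knockout and 19, 15 and 7 in wild type, which overlap.

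Olfr214 had 160 counts over the 3 knockout libraries, against 441 in wild type (-1.49 ± 0.29, adjusted p = 0.00524). Olfr667 had 129 counts over the knockout libraries, against 353 in wild type (-1.45 ± 0.29, adjusted p = 0.00567). Gm45272, a detected gene within 10 kb of Olfr667 on the opposite strand, fell too (-0.64, adjusted p = 0.0119). Olfr624 (-1.32 ± 0.33, adjusted p = 0.0149), Olfr472 (-1.24 ± 0.37, adjusted p = 0.0333), Olfr1173 (-1.09 ± 0.26, adjusted p = 0.0120) and Olfr1104 (-0.90 ± 0.27, adjusted p = 0.0351) made up the rest of the 16 olfactory receptor genes that fell. Of these, Olfr624 shared 23.8% of its 50-base windows and Olfr1173 shared 20.1%, so their values are uncertain. The closest relative of Olfr1173 is Olfr1168. The neighbouring Olfr1174-ps, with no gene between, was not called (0.24, adjusted p = 0.679).

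Olfactory receptor genes also made up 6 of the 7 genes that rose. Olfr1349 (ENSMUSG00000048067.9, chromosome 7) was the clearest. It had 329, 427 and 394 counts in the knockout, against 128, 168 and 75 in wild type, so that the groups were far apart. Its mean was 10.5 ± 1.03 CPM in the knockout and 3.42 ± 1.24 CPM in wild type (log2 fold change 1.62 ± 0.26 SE, adjusted p = 0.00199). Only 0.0409% of its 50-base windows were shared. Its promoter, chr7:6515378-6515677 on the minus strand of GRCm38.p6, holds neither TATAAA nor the homeodomain-type letters TAATTA or TAATTG, so nothing stands in capitals.
Olfr1349 promoter: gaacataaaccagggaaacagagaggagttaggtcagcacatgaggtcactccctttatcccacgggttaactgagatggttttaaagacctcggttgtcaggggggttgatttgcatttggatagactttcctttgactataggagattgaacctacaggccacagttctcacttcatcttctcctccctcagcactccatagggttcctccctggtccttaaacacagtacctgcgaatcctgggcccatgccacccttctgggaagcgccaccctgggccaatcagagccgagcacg

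Olfr1416, on chromosome 1, was the second most counted chemoreceptor gene. It had 546, 643 and 410 counts in the knockout and 411, 266 and 323 in wild type (14.7 ± 3.12 CPM in the knockout, 9.24 ± 1.47 CPM in wild type; 0.67 ± 0.20, adjusted p = 0.0323). In counts the lowest knockout library lay just under the highest wild-type library, while in CPM the groups did not overlap. This call was lost when any 1 library but the third of the knockout was left out (adjusted p from 0.0578 to 0.106). Ndufa10, a mitochondrial complex I gene on the same strand within 10 kb, was not called (0.07, adjusted p = 0.601).

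Olfr653 and Olfr654 lie next to each other on chromosome 7 on the same strand, and both rose. Olfr653 had 31, 20 and 27 counts in the knockout and 8, 3 and 0 in wild type (2.83 ± 0.77, adjusted p = 0.0224). Olfr654 had 18, 33 and 43 counts in the knockout and 4, 9 and 5 in wild type (2.33 ± 0.54, adjusted p = 0.0114). Olfr653 shared 0.486% of its windows and Olfr654 none. With 11 wild-type counts in all for Olfr653 and 18 for Olfr654, their folds rest on few reads.

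Olfr972 had 49, 35 and 43 counts in the knockout and 7, 14 and 8 in wild type (2.10 ± 0.44, adjusted p = 0.00752), and 15.2% of its windows were shared. It lies near Olfr976, with 4 genes between them, on the opposite strand and with the opposite direction of change. Olfr293 had 39, 46 and 31 counts in the knockout and 19, 9 and 11 in wild type (1.57 ± 0.41, adjusted p = 0.0186). The remaining 37 olfactory receptor genes were not called. Olfr206, with 185, 187 and 254 counts in the knockout and 173, 171 and 176 in wild type (0.24 ± 0.20, adjusted p = 0.393), and Olfr1043, with 150, 145 and 106 counts in the knockout and 169, 154 and 194 in wild type (-0.39 ± 0.24, adjusted p = 0.241), were the most counted of these.

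Of the 11 Vmn1r genes, which encode vomeronasal type 1 pheromone receptors, 4 fell, none rose and 7 were not called, against 18.2% lower and 14.7% higher over all genes tested. Their median log2 fold change was -0.53. Vmn1r139, the most counted, averaged 8.66 ± 2.74 CPM in the knockout and 12.5 ± 1.20 CPM in wild type, and was not called (-0.53 ± 0.22, adjusted p = 0.0998). Without the first knockout library it passed (-0.81, adjusted p = 0.0121), as it did with no filter on low counts (-0.55, adjusted p = 0.0426). Vmn1r35, second in counts, had 26, 72 and 53 in the knockout and 88, 90 and 49 in wild type, which overlap (-0.60 ± 0.39, adjusted p = 0.277).

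Vmn1r233 had 15, 15 and 14 counts in the knockout and 73, 58 and 75 in wild type (-2.24 ± 0.33, adjusted p = 0.00138). Vmn1r234 had 20, 10 and 23 counts in the knockout and 75, 77 and 29 in wild type (-1.75 ± 0.48, adjusted p = 0.0228). Vmn1r229 had 47, 42 and 39 counts in the knockout and 96, 83 and 56 in wild type (-0.87 ± 0.29, adjusted p = 0.0458). All 3 lie on chromosome 17, and of their windows at most 3.99% were shared. The call of Vmn1r229 was lost when any 1 library was left out (adjusted p from 0.061 to 0.137), and also with DESeq2 (0.0536), upper-quartile factors (0.0545), no filter on low counts (0.107) and the correction for GC content and length (0.185). Vmn1r203, on chromosome 13, had 30, 34 and 30 counts in the knockout and 70, 78 and 60 in wild type (-1.16 ± 0.29, adjusted p = 0.0156). It shared 10.8% of its windows, and an antisense gene, Gm11300, with no counts, overlaps its exons. The labels do not state whether the counting used strand.

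Of the 11 Vmn2r genes, the vomeronasal type 2 receptors with a large extracellular domain, 2 fell, none rose and 9 were not called, against the same shares over all genes. Vmn2r51 had 104, 129 and 79 counts in the knockout and 262, 206 and 188 in wild type (-1.08 ± 0.22, adjusted p = 0.00689), and the groups did not overlap. However, 52.6% of its 50-base windows occurred elsewhere, and its closest relative is Vmn2r30. The same stretch of both shows how close these copies are, with the 6 differing positions in capitals.
Vmn2r51: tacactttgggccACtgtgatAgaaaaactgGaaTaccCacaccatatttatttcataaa
Vmn2r30: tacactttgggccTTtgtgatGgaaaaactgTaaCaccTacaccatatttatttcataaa
Vmn2r26 had 16, 14 and 6 counts in the knockout and 60, 25 and 36 in wild type (-1.72 ± 0.50, adjusted p = 0.0284), and 18.2% of its windows were shared. Its call was lost once GC content and length were corrected for (adjusted p = 0.0625). The second most counted gene of the family, the pseudogene Vmn2r-ps106, had 82, 69 and 78 counts in the knockout and 60, 44 and 43 in wild type (0.64 ± 0.27, adjusted p = 0.102), and it shared 81.5% of its windows. It passed once GC content and length were corrected for (0.82, adjusted p = 0.0466). Vmn2r-ps61, also a pseudogene, had 58, 30 and 67 counts in the knockout and 66, 48 and 44 in wild type (-0.02 ± 0.37, adjusted p = 0.970), and these overlap.

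Taar9, the one trace amine-associated receptor gene to reach 60 counts, had 8, 5 and 14 counts in the knockout and 45, 59 and 47 in wild type. It averaged 0.249 ± 0.126 CPM in the knockout and 1.41 ± 0.280 CPM in wild type (-2.49 ± 0.46, adjusted p = 0.00414), and the groups did not overlap. None of its windows was shared with another transcript.

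Tas1r1, which with Tas1r3 forms the umami receptor of the tongue, had 111, 110 and 39 counts in the knockout and 35, 31 and 22 in wild type (1.56 ± 0.44, adjusted p = 0.0245). The third knockout library lay close to the wild-type libraries. The call was lost when any 1 library but that one was left out (adjusted p from 0.0638 to 0.0833), and with limma-voom (0.0599). Zbtb48, a zinc finger gene within 10 kb downstream of Tas1r1 on the same strand, rose as well (1.19, adjusted p = 0.000214). Its level was 46.0 CPM in the knockout, against 20.2 CPM in wild type. Nol9, within 10 kb on the other side and on the opposite strand, was not called (0.17, adjusted p = 0.4185). Tas1r2, the partner of Tas1r3 in the sweet receptor, had 7, 24 and 11 counts in the knockout and 8, 18 and 6 in wild type (0.36 ± 0.62, adjusted p = 0.699), and 47.1% of its windows were shared, and the gene Gm21969 overlaps its exons. Tas1r3 itself had 10 counts over all 6 libraries and was not tested.

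**Figure D3:**
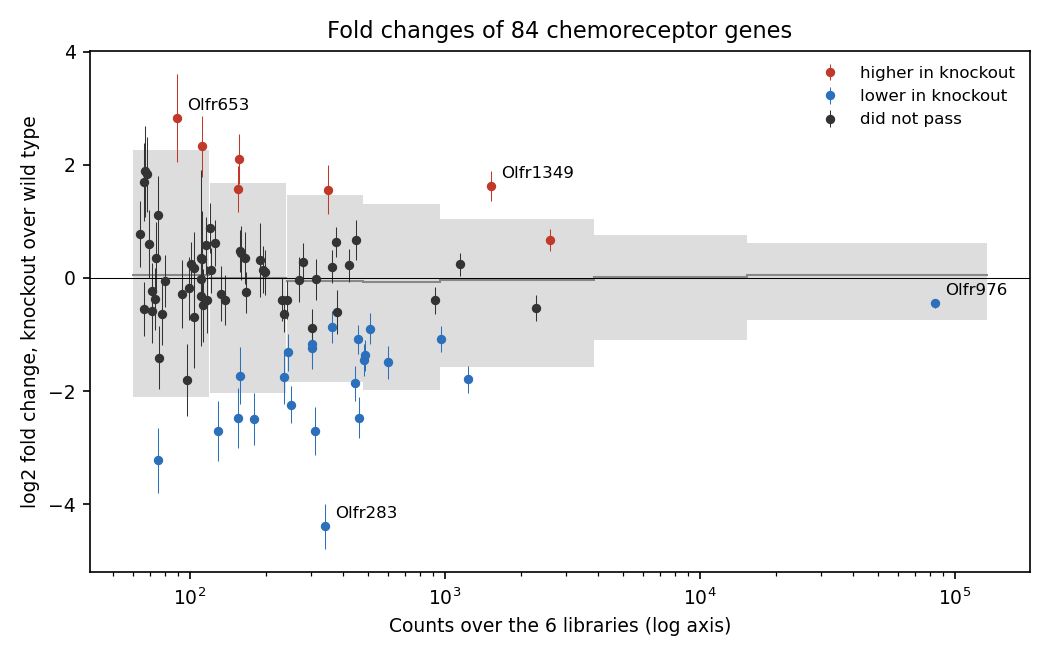
Log2 fold change (Zar1 knockout over wild type, with its standard error) of each of the 84 genes against its counts over the 6 libraries (log axis). Red points were called higher, blue points lower and black points neither; the grey band spans the 5th to the 95th percentile of all tested genes in the same range of counts and the grey line is their median. Between 240 and 479 counts 10 of 21 chemoreceptor genes were called lower, against 13.7% of all tested genes in that range. Between 60 and 119 counts 1 of 30 was called lower, against 6.51%.

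How many genes were called depended on their counts. Among chemoreceptor genes with 60 to 119 counts 3 of 30 were called, and of all tested genes in that range 11.7%. With 120 to 239 counts 7 of 21 chemoreceptor genes were called, and 15.4% of all genes. With 240 to 479 counts 11 of 21 were called, 1 higher and 10 lower, and 20.9% of all genes, 7.21% higher and 13.7% lower. With 480 to 959 counts 4 of 5 were called, all lower, and 29.55% of all genes. With 960 to 3839 counts 4 of 6 were called, 2 higher and 2 lower, and 37.7% of all genes. From 120 counts up, the called share of chemoreceptor genes was above that of all genes in each range that held any. These shares set the chemoreceptor genes beside genes of like depth, without a test.

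GC content differed between the chemoreceptor genes and the rest, and its part in the result was not tested alone. The median GC content of the longest annotated transcript was 39.4% for the 84 genes, like the 39.4% of chemoreceptor genes under 60 counts, and 48.6% for the other genes with 60 or more counts. When all tested genes were ordered by GC content and divided into 5 equal groups, 65 of the 84 fell in the lowest group, between 30.4% and 43.4% GC. In that group 9.19% of all genes were called higher and 26.8% lower, with a median log2 fold change of -0.16, while in the highest group 23.9% were called higher and 9.0% lower, with a median of 0.22. The chemoreceptor shares were 8.33% higher and 27.4% lower. In a fit that also corrected for GC content and transcript length, 9 of the 84 chemoreceptor genes were called higher and 19 lower. Over all 16483 genes the same fit called 2583 higher and 2550 lower. The median log2 fold change of the chemoreceptor genes was then -0.05, against 0.04 for all genes. That fit changed GC content and length together, so the share of either cannot be told apart.

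**Figure D4:**
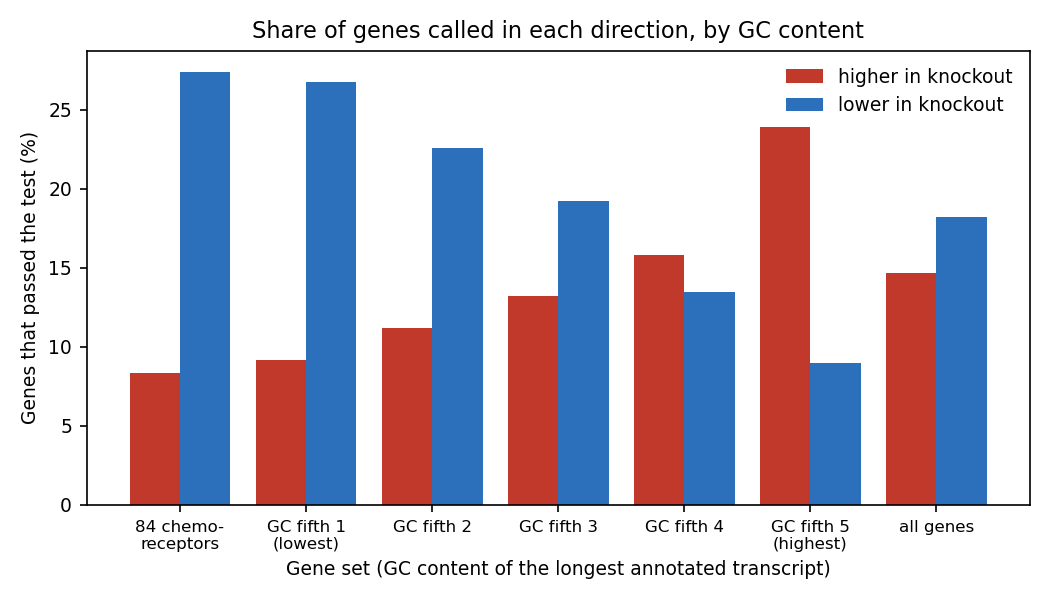
Percentage of genes called higher (red) and lower (blue) in the Zar1 knockout among the 84 chemoreceptor genes, the 5 equal groups of all tested genes by GC content, and all tested genes. Bars for the chemoreceptor genes, 8.33% and 27.4%, stand close to those for the lowest GC group, 9.19% and 26.8%.

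Shared sequence was compared in the same way. The deposited tables count reads with more than 1 alignment in a row of their own, 14.3 ± 0.610% of the reads listed in the knockout and 14.6 ± 0.265% in wild type, and whether such reads were also credited to genes is not stated. The 84 genes shared a median of 5.75% of their 50-base windows and 0.297% of their 100-base windows with other annotated transcripts. For 15 of them every 50-base window was unique and for 4 most windows were shared. Of the 40 genes with under 5% shared windows, 5 were called higher and 15 lower, and of the 44 others 2 were called higher and 8 lower. That is 20 of 40 called, against 10 of 44, with no test of the difference. Of the 9 genes annotated as pseudogenes, 3 fell, none rose and 6 were not called. Beside all of these counts, 14.7% of all genes tested were called higher and 18.2% lower, 32.9% in all.

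The 84 genes had a median exon length of 2973 bases, against 2416 bases for chemoreceptor genes under 60 counts, and 89.3% against 71.1% had more than 1 separate block of exon. Chromosome 7 held 24 of them, chromosome 2 held 10, chromosome 9 held 9 and chromosome 17 held 7. The nearest detected gene that is no receptor was called lower for 7, higher for 4 and neither for 12 of the 23 genes that fell, and higher for 1, lower for none and neither for 6 of the 7 that rose; over all genes tested 14.7% were called higher and 18.2% lower. For the 54 chemoreceptor genes not called, that neighbour was called higher for 4, lower for 7 and neither for 43. Receptor genes of 1 cluster can have the same nearest gene, so a neighbour can be counted more than once. Within 10 kb of a detected gene that is no receptor lay 7 of the 84, and 15 overlapped another annotated gene. Of 20 pairs of chemoreceptor genes with at most 5 genes between them, 13 had fold changes of the same sign and 3 had both genes called, the pairs Olfr653 with Olfr654, Olfr877 with Olfr878, and Olfr972 with Olfr976.

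RefSeq promoters of 300 bases were matched for 63 of the 84 genes, 64 promoters in all. The letters TATAAA stood on either strand in 34.4% of them, against 39.4% of all chemoreceptor promoters and 13.6% of all promoters. TAATTA stood in 18.8%, against 16.5% and 5.29%, and TAATTG in 15.6%, against 20.7% and 8.0%; homeodomain proteins such as LHX2 and EMX2 bind letters of this kind at olfactory receptor genes in the nose. CCCNNGGG, the core of sites for the EBF factors of olfactory neurons, stood in 4.69%, against 4.02% and 13.7%. CANNTG, the E-box, stood in 92.2%, against 80.1% and 72.3%. The searches counted both strands and allowed overlap. Median GC content was 37.3% for these promoters, 36.0% for all chemoreceptor promoters and 52.7% for all promoters. Of the 64 promoters 27 shared a stretch of 25 bases with the promoter of another gene, and 15.4% of a sample of 3286 promoters of all genes did. The share was not measured over all chemoreceptor promoters.

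The listed genes that serve chemoreceptors in sensory cells reached 60 counts unevenly. They were 13 of 18 genes of olfactory transduction, 6 of 10 of receptor export and 13 of 14 of receptor choice. Of the taste transduction genes 2 of 6 did so, and of the vomeronasal ones 2 of 5. Of 53 listed genes of olfactory, vomeronasal and taste transduction, receptor export and receptor choice, 36 had at least 60 counts, of which 3 rose, 5 fell and 28 were not called, against 14.7% higher and 18.2% lower over all genes tested. The other 17 were under 60 counts and 4 of these at 0. The median log2 fold change of the 36 was -0.04. Ano2, the olfactory chloride channel, fell: it had 236, 346 and 217 counts in the knockout and 861, 945 and 724 in wild type (-1.68 ± 0.19, adjusted p = 0.000368).

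Of the core of olfactory transduction, Gnal had 23, 24 and 36 counts in the knockout and 11, 14 and 60 in wild type (-0.13 ± 0.68, adjusted p = 0.909), Adcy3 had 27, 20 and 32 in the knockout and 84, 26 and 53 in wild type (-1.03 ± 0.45, adjusted p = 0.112, and 0.0425 without the second wild-type library), and Cnga2 had 30, 59 and 40 in the knockout and 75, 34 and 68 in wild type (-0.48 ± 0.40, adjusted p = 0.394). In all 3 the libraries of the genotypes overlapped. Of the receptor-export genes, Rtp1 and Rtp2, which carry olfactory receptors to the cell surface, had no counts, and Reep3 fell (-0.56 ± 0.18, adjusted p = 0.0425), a call that was lost without any 1 library but the third of wild type (adjusted p from 0.0657 to 0.15).

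Among genes of receptor choice, Ldb1, the adaptor that holds olfactory enhancers together, rose to 49.7 ± 5.72 CPM in the knockout, against 27.8 ± 1.03 CPM in wild type (0.84 ± 0.11, adjusted p = 0.000713). Ehmt2, a histone H3 lysine methyltransferase, had 45, 710 and 193 counts in the knockout and 40, 14 and 37 in wild type (3.34 ± 0.87, adjusted p = 0.0186), with knockout libraries far apart. That call was lost without the second knockout library (1.97, adjusted p = 0.0522) and without the first (0.0581) or the second (0.0684) wild-type library. Ebf2 had 29, 8 and 6 counts in the knockout and 110, 169 and 81 in wild type (-3.05 ± 0.59, adjusted p = 0.00503), and Emx2 had 55, 12 and 84 in the knockout and 279, 421 and 215 in wild type (-2.60 ± 0.56, adjusted p = 0.00785); both encode transcription factors of olfactory neurons. Itpr3, the calcium-release channel of taste cells, had 685, 556 and 278 counts in the knockout and 85, 120 and 93 in wild type (2.33 ± 0.35, adjusted p = 0.00139). Trpc2, the channel of vomeronasal neurons, had no counts, and B2m, a partner of the MHC proteins found with type 2 vomeronasal receptors, fell to 14.5 ± 1.29 CPM in the knockout, against 22.2 ± 2.04 CPM in wild type (-0.62 ± 0.13, adjusted p = 0.00737).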

How the data were processed

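The deposited tables give raw read counts per gene for each library, 3 Zar1 knockout and 3 wild type, with no pooling. The submitters' processing notes name bcl2fastq 2.20.0.422, cutadapt 2.8, STAR 2.7.8a, HTSeq 0.13.5 and mm39; they state no annotation, strand setting or read length. Rows without a symbol held up to 0.256% of a library's counts and were kept in its total; the summary rows of the counting were left out.

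Genes with at least 60 counts over the 6 libraries were fitted with edgeR 4.0.16 (TMM factors, quasi-likelihood F-test, genotype only, Benjamini-Hochberg over 16483 genes, adjusted p under 0.05, two-sided). Standard errors are the log2 fold change divided by the square root of F, and CPM use TMM-scaled library sizes. The steps were tested on simulated data. Alternatives used DESeq2 1.42.0, limma 3.58.1 and other factors, filters and libraries. Shared windows, GC content and neighbours came from GENCODE M21 on GRCm38, names and order only, with BLAST 2.17.0, and promoters from RefSeq GRCm38.p6. All 84 genes matched that annotation, and shared windows were measured on the longest transcript of each.

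Named genes are Zar1, Zar1l, the 10 most counted chemoreceptor genes, all called ones, the 3 most counted of each smaller family, called and core genes of the listed machinery, the most counted markers, and neighbours or copies for closeness alone. Olfr286, Olfr874 and Olfr1174-ps (as neighbours), the genes at the edge of the rule, Tas1r3, Rtp1, Rtp2 and Trpc2 were named after their values were seen. So were Amh, Foxl2, Lhcgr and the neighbour Nol9. The genes and lists were chosen with earlier results of these data known.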

Additional observations from a re-analysis of the deposited data

How the results depend on the processing

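Of the 84 genes 30 had under 120 counts, and 3 of those 30 were called, against 11.7% of all tested genes with 60 to 119 counts. Over 15 alternatives, 19 of the 30 called genes kept their call, with the same sign throughout, and 11 lost it under at least 1. Left out 1 at a time, libraries gave 3 to 8 chemoreceptor genes higher and 18 to 23 lower, and, over all genes, 1542 to 2499 higher and 2238 to 3058 lower, against 7, 23, 2418 and 3004 with all libraries. The fewest chemoreceptor genes higher, 3 and 4, came without wild-type library 2 and without wild-type library 3, and without wild-type library 3 the count over all genes higher was 1542. Besides the losses given above, calls were lost without each of these single libraries (adjusted p from 0.0517 to 0.124): Olfr1104 (any but knockout 1), Olfr472 (knockout 2 or any wild-type library), Vmn1r234 (knockout 2, wild type 1 or 2), Vmn2r26 (knockout 2 or 3, wild type 1 or 3), Olfr293 (wild type 2 or 3), Olfr653 (knockout 1, wild type 2), Vmn1r203 (wild type 2) and Olfr624 (wild type 3). At an adjusted p of 0.01 the calls were 2 chemoreceptor genes higher and 15 lower, and 1128 and 1810 of all genes. Counting just the genes with under 5% shared windows also gave 15 lower, because fewer genes were counted. The machinery list had 5 higher in place of 3 with upper-quartile factors and with DESeq2, and 2 to 4 without 1 library. Chemoreceptor genes taken at 30 or more counts, 148 genes, gave 8 higher and 25 lower. The calls over all genes in that fit are not given here, so these counts have no background beside them. The correction for GC content and length also ended the calls of Olfr1104 (adjusted p = 0.0958) and Olfr472 (0.0854). That correction and the split by shared windows were chosen after seeing the data.

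Signs turned in uncalled genes near 0: Vmn2r-ps61 (0.028 with upper-quartile factors, 0.0666 with the GC and length correction, and from -0.24 to 0.27 without single libraries), Tas1r2 (-0.23 without knockout library 2, and up to 0.98 without another) and Gnal (0.40 with limma-voom, 0.28 with the replicate block, 0.0083 with the GC and length correction and from -0.55 to 1.18 without single libraries). The cause was not tested.

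Same-numbered libraries did not deviate together (r = -0.011, -0.024 and -0.026 over genes). These deviations were taken from the mean of each genotype's 3 libraries. With so few libraries they cannot decide whether the numbers pair the samples. With the replicate number as a block, 6 chemoreceptor genes were higher and 22 lower, 2077 and 2737 of all genes, and 2 and 4 of the machinery list. Olfr1416 (adjusted p = 0.0612), Vmn1r229 (0.0762), Vmn1r234 (0.0538), Reep3 (0.0819) and Ehmt2 (0.0672) were then no longer called.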
